A study of Mus musculus with 12 samples.

Results

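The NADPH oxidase of phagocytes was examined through 6 genes, Cybb, Cyba, Ncf1, Ncf4, Rac2 and Nox1, which were chosen by name out of 47643 genes in bulk RNA-seq. of mouse osteoclasts. All 6 were found once in the table and all 6 passed the filter on low counts. Bone marrow-derived monocytes (BMMs) of wildtype BALB/c mice were cultured with M-CSF and RANKL and harvested as osteoclasts on day 3. Unstimulated cells formed the control (OCsCtr), while the other groups received stimuli from the first day of culture for 48 h, either eosinophils at 2 cells per BMM (OCsEo) or eosinophil supernatant diluted 1:2 (OCsEoS), after which all stimuli were washed off. The eosinophils were sorted from blood and bone marrow of IL-5tg/4get mice, which overproduce IL-5 and carry many eosinophils, so that these cells came from another mouse line than the BMMs. Each group held 4 libraries, described as biological replicates, with 27837530 to 40327869 counts each. The study asked which genes change in osteoclasts that have met eosinophils.

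The phagocyte oxidase moves electrons from NADPH across the membrane onto oxygen and so makes superoxide. Cybb (gp91phox or Nox2) holds the catalytic centre and sits in the membrane with its partner Cyba (p22phox), which is also the partner of Nox1, a homologue of Cybb best known from colon epithelium. On activation, cytosolic subunits, among them Ncf1 (p47phox) and Ncf4 (p40phox), join the membrane pair together with the GTPase Rac2. In osteoclast precursors, reactive oxygen species are known to take part in signalling downstream of RANKL.

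The cells carried the RNA of osteoclasts. In OCsCtr the mean of Ctsk (cathepsin K) was 12120 CPM (counts scaled to library size) and that of Acp5, which encodes TRAP, 7158 CPM. The summed level of 11 osteoclast markers ranged from 28550 to 34720 CPM in OCsCtr, from 18280 to 23400 CPM in OCsEo and from 15120 to 22370 CPM in OCsEoS. In each stimulated group, 8 of 11 markers were called lower against OCsCtr. Over all genes tested, 3.27% were called higher and 2.61% lower in OCsEo, and 3.63% and 4.11% in OCsEoS. The sum of 10 monocyte and macrophage markers overlapped between the groups, at 6522 to 7157, 6709 to 8259 and 6249 to 7364 CPM, respectively, but most of this sum was Lyz2 (4251 CPM in OCsCtr), and members moved in both directions. In OCsEo, 1 of the 10 was called higher and none lower (median log2 fold change 0.21), and in OCsEoS 3 were called higher, Adgre1, Mrc1 and Cd14, and 1 lower, Csf1r (median 0.31). Of 10 eosinophil markers, Epx (eosinophil peroxidase) was at or near 0 (at most 0.479 CPM in a library of OCsEo and 0 in all of OCsEoS), while Siglecf averaged 0.428, 2.94 and 0.827 CPM and Alox15 0.3, 10.98 and 0.669 CPM in OCsCtr, OCsEo and OCsEoS. Prg2 (major basic protein) averaged 5.53 CPM in the control cells, 5.49 CPM in OCsEo and 0.815 CPM in OCsEoS, where it was called lower (log2 fold change -2.74). Of the 5 eosinophil markers tested, 2 were called higher in OCsEo, with a median log2 fold change of -0.0089, and 1 was called lower in OCsEoS. The eosinophil list summed to 57.1 to 73.7, 60.1 to 82.2 and 49.3 to 55.5 CPM, most of it from Ccr3, which was also present in the control cells (59.6 CPM). A list of 12 neutrophil markers summed to 356.1 to 504.2, 513.8 to 681.7 and 401.4 to 466.7 CPM, so that OCsEo lay above both other groups. Most of this sum was S100a9 and S100a8 (161.1 and 114.2 CPM in OCsCtr). In OCsEo, 2 of the 12 were called higher and 0 lower, with log2 fold changes from -0.66 to 0.99, and in OCsEoS against OCsCtr 0 were called. In OCsEoS against OCsEo, 3 of the 12 were called lower and 0 higher (median log2 fold change -0.56). Of the 5 eosinophil markers tested, 2 were called lower there (median -1.82), against 0.307% of all genes tested. B cell markers summed to at most 20.4 CPM and T cell markers to at most 2.54 CPM in any library. In these bulk samples, fewer cells of a type and less RNA per cell cannot be told apart.

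The oxidase genes lie on 4 chromosomes of GRCm38/mm10. Cybb is on chromosome X (9435252 to 9487771, minus strand) with 15 merged exons, and Nox1 is on the same chromosome (134086421 to 134221956, minus strand) with 18 merged exons. Cyba is on chromosome 8 (122424772 to 122432940, minus strand), Ncf1 on chromosome 5 (134220053 to 134229625, minus strand), and Ncf4 (78244801 to 78262580, plus strand) and Rac2 (78559169 to 78572783, minus strand) are both on chromosome 15. Exons of Nox1 share 399 bases with Cstf2 on the opposite strand, and exons of Ncf1 share 408 bases with Gtf2ird2 on the opposite strand. Whether reads were counted by strand is not given in the sources used here, so reads from these stretches could belong to either gene.

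The promoters of the 4 genes with an entry in the RefSeq promoter table (build GRCm38.p6) are printed, first for Cybb and its homologue Nox1 and then for Cyba and Ncf1. Each runs 5′ to 3′ from 250 bases before to 50 bases after the start of transcription. For Cybb and Nox1 the RefSeq start lies inside the gene body given above, whereas for Cyba and Ncf1 it lies at the end of the gene body. Capitals mark every match, on either strand, to GAGGAA, a form of the site bound by PU.1, the myeloid factor known to drive phagocyte oxidase genes, and to CCAAT, a box bound by activators that the repressor Cux1 (CCAAT displacement protein) can displace.
Cybb, chrX:9469275-9469574, minus strand: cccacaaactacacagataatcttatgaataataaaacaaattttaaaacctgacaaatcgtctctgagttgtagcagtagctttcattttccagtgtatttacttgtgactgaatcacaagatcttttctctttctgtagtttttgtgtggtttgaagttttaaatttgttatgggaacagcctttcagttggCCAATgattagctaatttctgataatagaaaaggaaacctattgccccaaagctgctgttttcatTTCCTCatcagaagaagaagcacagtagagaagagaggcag
Nox1, chrX:134111805-134112104, minus strand: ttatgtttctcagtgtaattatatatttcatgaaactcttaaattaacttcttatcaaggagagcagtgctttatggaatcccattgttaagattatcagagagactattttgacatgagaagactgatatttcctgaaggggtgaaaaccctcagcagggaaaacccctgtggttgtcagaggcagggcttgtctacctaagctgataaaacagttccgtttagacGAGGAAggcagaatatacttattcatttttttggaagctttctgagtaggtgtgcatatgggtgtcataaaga
Cyba, chr8:122432891-122433190, minus strand: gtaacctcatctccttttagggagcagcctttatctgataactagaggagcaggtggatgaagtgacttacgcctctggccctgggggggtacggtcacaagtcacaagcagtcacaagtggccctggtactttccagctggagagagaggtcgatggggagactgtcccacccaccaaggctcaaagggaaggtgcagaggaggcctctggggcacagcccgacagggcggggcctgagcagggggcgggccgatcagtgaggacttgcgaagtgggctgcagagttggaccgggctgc
Ncf1, chr5:134229576-134229875, minus strand: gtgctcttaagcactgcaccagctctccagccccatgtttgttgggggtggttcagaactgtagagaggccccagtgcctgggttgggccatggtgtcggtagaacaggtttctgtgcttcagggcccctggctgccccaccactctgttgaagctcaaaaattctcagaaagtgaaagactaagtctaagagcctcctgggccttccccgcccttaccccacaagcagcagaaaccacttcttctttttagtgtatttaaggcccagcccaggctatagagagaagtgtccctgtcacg
Cybb held 1 GAGGAA on the reverse strand, at bases 10 to 15 after the start, and 1 CCAAT at -56 to -52, whereas Nox1 held 1 GAGGAA at -23 to -18 and no CCAAT. Neither word was present in the windows of Cyba and Ncf1. GAGGAA was found in 28.3% and CCAAT in 37.4% of all 32851 promoter windows of that length, so both are common words. The windows also differed in base composition, with 35.3% G and C in Cybb and 38% in Nox1 against 60.7% in Cyba and 54% in Ncf1.

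The subunits were expressed at very different levels. Per kilobase of gene length, the mean control level was highest for Cyba at 1372 ± 85 CPM per kb (SD, n = 4), above 99.7% of the 13681 genes tested. Rac2 at 302.2 ± 15.3 and Ncf4 at 300.3 ± 17.5 CPM per kb followed, and the ranges of this pair overlapped almost fully. Then came Cybb at 17.4 ± 3.57 and Ncf1 at 12.98 ± 2.01 CPM per kb, whose ranges of 14.41 to 22.41 and 11.02 to 15.09 also overlapped. Nox1 was lowest at 3.375 ± 0.195 CPM per kb, above 48% of the genes tested. The order was the same in OCsEo and OCsEoS except that Ncf4 (290.4 and 286.6 CPM per kb) then lay above Rac2 (239.7 and 198.8) and that Ncf1 lay above Cybb in the mean of OCsEo, at 17.05 against 16.29. The level of Cyba depends on its length, which is 758 bases in the deposited table and 1039 in GENCODE vM21.

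**Figure D1:**
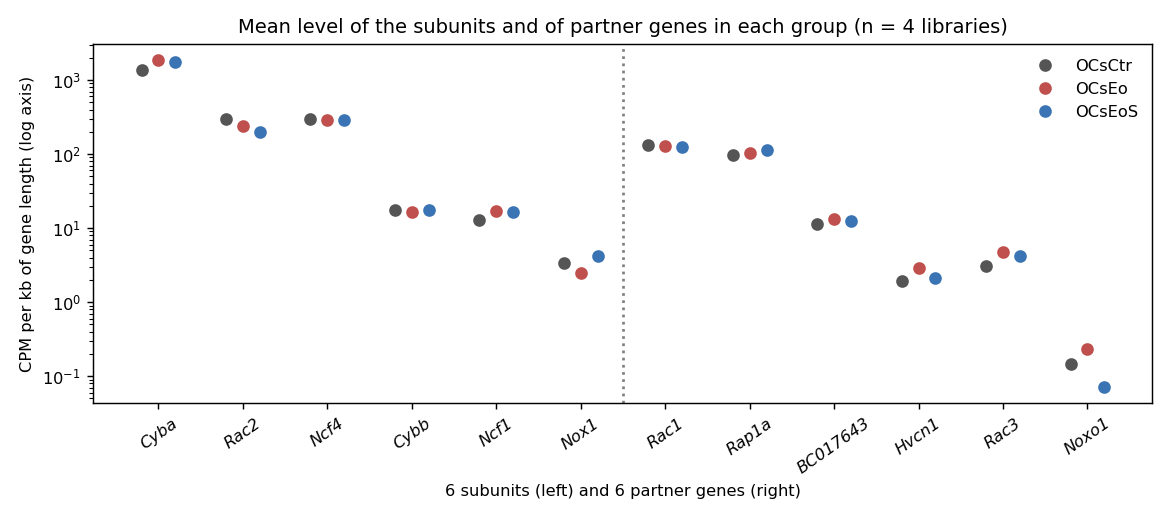
Mean CPM per kb of gene length on a log axis for the 6 subunits (left of the dotted line) and 6 partner genes (right), 1 point per group of 4 libraries, OCsCtr grey, OCsEo red and OCsEoS blue. Cyba stands at 1372 CPM per kb in OCsCtr, Cybb at 17.4 and Nox1 at 3.375, and Noxo1 is lowest.

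For the comparisons, a gene was called when the adjusted p of edgeR's quasi-likelihood test was under 0.05 and the log2 fold change was beyond 0.5 in either direction. Between OCsEo and OCsCtr none of the 6 subunits was called, where 3.27% of all genes tested were called higher and 2.61% lower. By the adjusted p alone, 4 of 6 passed, against 17.4% of all genes. The same 4 had an unadjusted p under 0.05, and DESeq2 called none of the 6 either. Between OCsEoS and OCsCtr, 1 of 6 was called, Rac2, which was lower, as were 4.11% of all genes, while 3.63% were called higher and none of the subunits was. By the adjusted p alone, 3 of 6 passed against 23.0% of all genes. Between OCsEoS and OCsEo, 1 of 6 was called, Nox1, which was higher in OCsEoS, as were 0.0731% of all genes, while 0.307% were called lower and 0.592% passed by the adjusted p alone. With 6 genes these shares rest on very few calls. The comparisons of OCsEo and OCsEoS against OCsCtr share the same 4 control libraries.

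**Figure D2:**
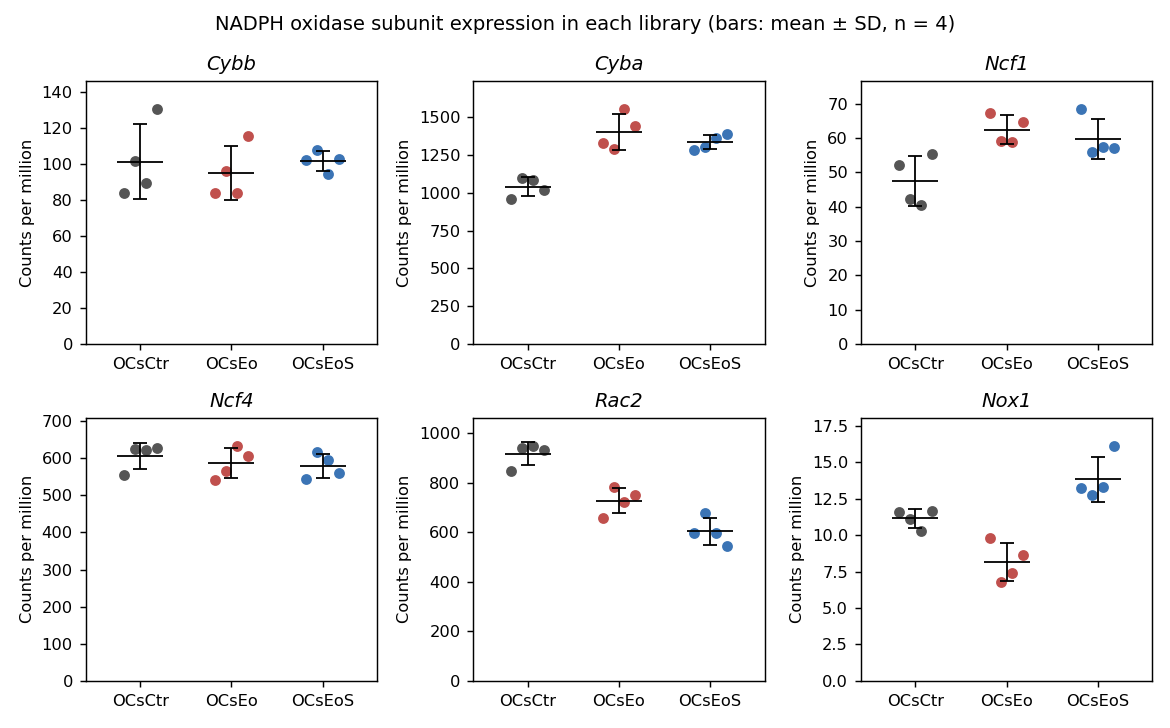
CPM of each subunit in each library (points, in the order of the replicate numbers) with mean ± SD (bars, n = 4), on axes that start at 0. All stimulated libraries lie above all control libraries for Cyba and Ncf1 and below them for Rac2, and the 3 groups do not overlap for Nox1.

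The catalytic subunit Cybb did not pass the test in any comparison. Its level was 83.7, 101.4, 89.2 and 130.2 CPM in the 4 OCsCtr libraries, 83.9, 95.8, 83.6 and 115.4 CPM in OCsEo, and 101.8, 107.5, 94.3 and 102.9 CPM in OCsEoS. The groups overlapped fully and the control libraries alone spanned more than the others, with a coefficient of variation of 20.5% against 5.4% in OCsEoS. The log2 fold change was -0.10 ± 0.116 (SE, adjusted p = 0.645) in OCsEo and 0.01 ± 0.116 (adjusted p = 0.977) in OCsEoS against OCsCtr. The 95% confidence intervals ran from -0.34 to 0.15 and from -0.24 to 0.25, so a change of Cybb beyond the cut-off lay outside both.

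Nox1, the second catalytic subunit, was the gene called between the stimuli. It was measured at 11.61, 11.10, 10.28 and 11.66 CPM in OCsCtr, at 9.77, 6.80, 7.43 and 8.63 CPM in OCsEo and at 13.21, 12.73, 13.30 and 16.12 CPM in OCsEoS. Thus, all OCsEo libraries lay below and all OCsEoS libraries above the controls. Directly compared, Nox1 was upregulated in OCsEoS against OCsEo, with a log2 fold change of 0.76 ± 0.137 (1.70-fold, adjusted p = 0.0134). Against OCsCtr the log2 fold change was -0.45 ± 0.138 in OCsEo (adjusted p = 0.0271, short of the fold-change threshold) and 0.31 ± 0.136 in OCsEoS (adjusted p = 0.11). Leaving out replicate 2 of OCsEo ended the call between OCsEoS and OCsEo (0.69, adjusted p = 0.0516), and leaving out replicate 1 of OCsEo brought OCsEo against OCsCtr past the cut-off (-0.55, adjusted p = 0.0134). In that comparison the adjusted p was over 0.05 (0.0583 to 0.0788) when replicate 1, 2 or 4 of OCsCtr or replicate 2 or 3 of OCsEo was left out. Cstf2, which overlaps Nox1, was at 62.44 ± 3.27 CPM in OCsCtr, 60.04 ± 3.9 CPM in OCsEo and 64.5 ± 2.38 CPM in OCsEoS and was not called, its log2 fold changes being -0.06, 0.05 and 0.10 in the 3 comparisons. Its part in the counts of Nox1 was not tested.

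Cyba, the membrane partner of both Cybb and Nox1, was higher in every stimulated library. It was at 960.6, 1098, 1086 and 1014 CPM in OCsCtr, at 1325, 1289, 1550 and 1440 CPM in OCsEo, and at 1284, 1303, 1359 and 1384 CPM in OCsEoS. The lowest stimulated library (1284 CPM) stood well above the highest control (1098 CPM). The log2 fold change was 0.43 ± 0.0606 (1.35-fold, adjusted p = 7.34e-05) in OCsEo and 0.36 ± 0.0606 (1.28-fold, adjusted p = 0.000266) in OCsEoS, which passed the adjusted p but not the fold-change cut-off. Over all alternatives in processing it ranged from 0.363 to 0.468 in OCsEo and from 0.248 to 0.392 in OCsEoS. Omission of single libraries alone gave at lowest 0.376 and 0.313. OCsEoS and OCsEo overlapped, with a difference of -0.07 (adjusted p = 0.701).

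Neither Cyba nor Cybb was called, and their ratio is given as a description. Per kilobase of gene length, the level of Cyba exceeded that of Cybb 81.0 ± 14.8 times (SD, n = 4) in OCsCtr, 115.5 ± 20.7 times in OCsEo and 100.8 ± 7.73 times in OCsEoS. These values rest on a Cyba length of 758 bases, which is 1039 in GENCODE vM21. The ratio ran from 59.7 to 93.3 in OCsCtr, from 95.7 to 142.1 in OCsEo and from 92.9 to 110.5 in OCsEoS, so that OCsEo lay above the controls in every library and OCsEoS overlapped them only at its lowest library. The ratio of Nox1 to Cybb was 0.199 ± 0.0356, 0.154 ± 0.0363 and 0.24 ± 0.0287, and these ranges overlapped between OCsCtr and each stimulated group, whereas those of OCsEo (0.125 to 0.205) and OCsEoS (0.208 to 0.275) did not overlap.

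Among the cytosolic subunits, Ncf1, the organizer that bridges to Cyba, was higher in all stimulated libraries. It was at 52.3, 42.2, 40.4 and 55.3 CPM in OCsCtr, at 67.4, 59.0, 58.8 and 64.5 CPM in OCsEo, and at 68.4, 55.8, 57.5 and 57.1 CPM in OCsEoS. The gap to the controls was narrow, since the lowest OCsEoS library (55.8 CPM) stood just above the highest control (55.3 CPM). The log2 fold change was 0.39 ± 0.0985 (1.31-fold, adjusted p = 0.00824) in OCsEo and 0.33 ± 0.0986 (1.26-fold, adjusted p = 0.0201) in OCsEoS, both short of the fold-change threshold, and OCsEoS against OCsEo did not pass the test (-0.07, adjusted p = 0.852). For Ncf1 in OCsEoS the adjusted p was over 0.05 (0.0736 to 0.0778) without replicate 2 or 3 of OCsCtr or replicate 1 of OCsEoS. Gtf2ird2, which overlaps Ncf1, was much lower at 3.67, 3.55 and 2.38 CPM and was not called.

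Ncf4, the subunit that binds phosphatidylinositol 3-phosphate on phagosomes, did not pass the test in any comparison. It was at 554.1, 624.4, 622.2 and 626.9 CPM in OCsCtr, at 542.3, 566.8, 633.3 and 605.6 CPM in OCsEo, and at 544.4, 616.5, 595.6 and 560.9 CPM in OCsEoS. All groups overlapped. The log2 fold change was -0.05 (95% confidence interval -0.18 to 0.08, adjusted p = 0.665) in OCsEo and -0.07 (-0.20 to 0.06, adjusted p = 0.491) in OCsEoS. The ratio of Ncf4 to Ncf1, per kilobase of gene length, was 23.6 ± 4.38 in OCsCtr, 17.1 ± 2.03 in OCsEo and 17.8 ± 2.4 in OCsEoS. The ranges were 19.2 to 27.9, 14.6 to 19.5 and 14.43 to 20.02. Those of the stimulated groups overlapped fully and reached that of OCsCtr at its lower edge.

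Rac2, the GTPase of the oxidase in blood cells, was the subunit with the clearest decrease. It was at 848.8, 942.1, 948.5 and 930.4 CPM in OCsCtr, at 658.6, 780.8, 722.9 and 748.7 CPM in OCsEo, and at 596.4, 677.1, 596.2 and 544.5 CPM in OCsEoS. Every stimulated library lay below every control, and OCsEoS overlapped OCsEo only through its highest library. Rac2 was downregulated in OCsEoS, with a log2 fold change of -0.60 ± 0.0666 (0.658-fold, adjusted p = 6.11e-06). In OCsEo it passed the adjusted p without reaching the fold-change threshold (-0.33 ± 0.0664, 0.793-fold, adjusted p = 0.00153), and OCsEoS against OCsEo gave -0.27 ± 0.0664 (adjusted p = 0.0756). That adjusted p was under 0.05 (0.00604 to 0.0403) with DESeq2, without the filter on low counts, with the replicate block, or without replicate 1 of OCsEo or replicate 2 of OCsEoS, always short of the fold-change threshold. The summed osteoclast markers were lower in the same groups, going from a mean of 32590 CPM in OCsCtr to 21550 CPM in OCsEo and 18800 CPM in OCsEoS, and their part in the level of Rac2 was not tested.

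**Figure D3:**
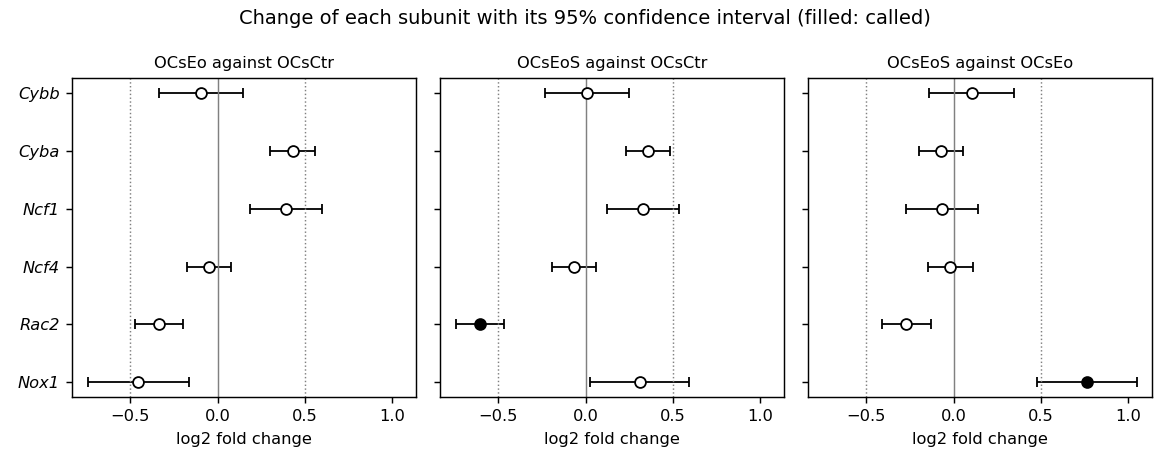
Log2 fold change of each subunit with its 95% confidence interval in the 3 comparisons. Dotted lines mark the fold-change cut-off of 0.5 and filled points the called genes, Rac2 in OCsEoS against OCsCtr and Nox1 in OCsEoS against OCsEo.

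Rac1, the ubiquitous paralogue, and Rac3 were compared with Rac2, since the 3 proteins are closely similar. Rac1 was at 597.7 ± 12.5, 578.7 ± 27.4 and 554 ± 16.2 CPM in OCsCtr, OCsEo and OCsEoS and was not called (log2 fold changes against OCsCtr of -0.05 and -0.11). Rac3 was rare at 3.93, 6.22 and 5.5 CPM and was upregulated in OCsEo (log2 fold change 0.66, adjusted p = 0.0224), a call that was lost without replicate 2 or 4 of OCsCtr or replicate 3 of OCsEo (adjusted p = 0.0503, 0.0786 and 0.075). Per kilobase of gene length, Rac2 made up 67.8, 69.2, 69.3 and 69.5% of the summed Rac1, Rac2 and Rac3 level in the OCsCtr libraries, 62.3, 67.3, 63.1 and 64.0% in OCsEo, and 59.8, 63.4, 60.9 and 59.4% in OCsEoS. The mean share was 68.9% ± 0.746, 64.2% ± 2.17 and 60.9% ± 1.8 (SD, n = 4), and both stimulated groups lay below all controls.

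**Figure D4:**
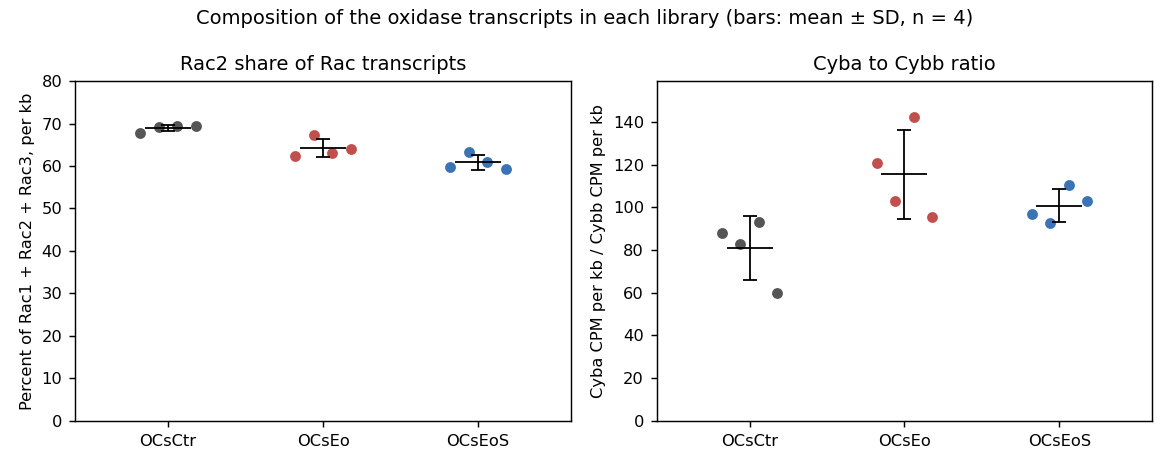
Rac2 as a percentage of the summed Rac1, Rac2 and Rac3 level per kb (left) and the ratio of Cyba to Cybb per kb (right) in each library, with mean ± SD (n = 4), on axes that start at 0. The mean Rac2 share is 68.9% in the control, 64.2% with eosinophils and 60.9% with their supernatant.

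Neutrophils and eosinophils are both rich in phagocyte oxidase, so the subunits were set beside the markers of these cells. Cyba and Ncf1, which passed the adjusted p but were not called, were higher in OCsEo, where the neutrophil sum was also higher (mean 585 against 459 CPM), and also in OCsEoS, where that sum was not (439 CPM). Of the eosinophil markers, Alox15 was called higher in OCsEo against OCsCtr and lower in OCsEoS against OCsEo (log2 fold changes 5.17 and -4.03), Siglecf was called higher in OCsEo, and Prg2 (-0.0089) and Ccr3 (-0.29) were not called in OCsEo. Cybb and Ncf4 did not pass the adjusted p in either group. The part of remaining eosinophils or neutrophils in the levels of the subunits was not tested.

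The other genes of the oxidase were followed through 15 genes, of which 9 passed the filter on low counts. In OCsEo, 2 of 9 were called higher and none lower, with a median log2 fold change of 0.24. Over all genes tested, 3.27% were called higher and 2.61% lower in OCsEo, and 3.63% and 4.11% in OCsEoS. The median over all genes was -0.01 in both comparisons against OCsCtr and 0.0015 in OCsEoS against OCsEo. The 2 genes of this list were Rac3 and Hvcn1, the proton channel that offsets the charge moved by the oxidase. Hvcn1 was at 6.86 ± 1.46 CPM in OCsCtr and 10.2 ± 2.19 CPM in OCsEo (log2 fold change 0.57, adjusted p = 0.0482). Hvcn1 lost its call when any of replicates 1, 2 and 3 of OCsCtr, 1 and 4 of OCsEo or 3 of OCsEoS was left out (adjusted p = 0.0558 to 0.171). In OCsEoS none was called, with a median of 0.15, and Hvcn1 was at 7.47 ± 1.54 CPM. None was called between OCsEoS and OCsEo, with a median of -0.06. BC017643, also named Cybc1 or Eros, a chaperone that Cybb and Cyba need, was at 47.7 ± 1.88, 56.3 ± 2.83 and 53.1 ± 1.88 CPM, with a log2 fold change of 0.24 in OCsEo (adjusted p = 0.0202, under the cut-off) and 0.15 in OCsEoS (adjusted p = 0.115).

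The specific partners of Nox1 were close to the limit of detection. Noxo1, the organizer of Nox1, averaged 0.437, 0.691 and 0.216 CPM in OCsCtr, OCsEo and OCsEoS. Noxa1, its activator, had 0 counts in all 12 libraries, where 3 counts, the limit that a count of 0 allows, correspond to 0.0744 to 0.108 CPM. Nox3 had 0 counts as well, and the mean of Nox4, Duox1, Duox2 and Duoxa2 was under 0.1 CPM in each group.

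Kinases, lipid kinases and exchange factors that activate the oxidase were followed through 20 genes, all of which were tested. In OCsEo, 2 of 20 were called lower, against 2.61% of all genes tested, and none higher (median log2 fold change -0.03). Both were protein kinase C genes, the kinases that phosphorylate Ncf1, while the more abundant Prkcd of the same family was at 124.6, 122.4 and 122.4 CPM and was not called (log2 fold change -0.03, adjusted p = 0.866 in OCsEo). Prkcb went from 27.4 ± 4.11 CPM in OCsCtr to 16.8 ± 1.58 CPM in OCsEo (log2 fold change -0.71 ± 0.122, adjusted p = 0.000465) and Prkca from 6.38 to 3.96 CPM (log2 fold change -0.69 ± 0.185, adjusted p = 0.0132). Without replicate 2 of OCsCtr, Prkca was not called (-0.62, adjusted p = 0.0512). In OCsEoS only Prkcb of the 20 was called lower, against 4.11% of all genes tested. Prkcb was at 17.5 ± 1.96 CPM there (log2 fold change -0.65, adjusted p = 0.000668), and the median of the list was -0.14. None was called between OCsEoS and OCsEo, with a median of -0.07.

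Of 13 genes that remove superoxide and peroxides, 12 were tested. In OCsEo, 2 of 12 were called higher, against 3.27% of all genes tested, with a median log2 fold change of 0.19. Gpx1, a glutathione peroxidase, went from 2029 ± 100 CPM to 2985 ± 206 CPM (log2 fold change 0.56 ± 0.054, adjusted p = 1.13e-06), and Prdx1, a peroxiredoxin, from 1357 ± 75.2 CPM to 2048 ± 165 CPM (0.59 ± 0.0601, adjusted p = 1.84e-06). With the trend of counts with gene length taken out, Gpx1 was not called (0.46). In OCsEoS both were under the fold-change cut-off, at 2572 and 1754 CPM (log2 fold changes 0.34 and 0.37), none of the list was called and the median was 0.17. None was called between OCsEoS and OCsEo, with a median of -0.02.

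Among 16 factors that regulate oxidase genes, 14 were tested and none was called in OCsEo (median log2 fold change 0.03). In OCsEoS, 1 of 14 was called lower, against 4.11% of all genes tested. It was Cux1, the repressor that occupies the CCAAT region of the CYBB promoter in immature myeloid cells. Cux1 averaged 76.9 ± 7.89 CPM in OCsCtr and 50.8 ± 10.8 CPM in OCsEoS (log2 fold change -0.60, adjusted p = 0.00193). With the trend of counts with gene length taken out, Cux1 was under the cut-off (-0.34). The Cux1 ranges of 65.8 to 84.5 and 43.0 to 66.7 CPM overlapped, and the median of the list was -0.06. Spi1, which encodes PU.1, was at 677.8 ± 14, 669.8 ± 4.86 and 616 ± 34.1 CPM and was not called. None of the 14 was called between OCsEoS and OCsEo, with a median of -0.12.

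Of 6 heme peroxidase genes, whose products use hydrogen peroxide, 4 were tested and none was called against OCsCtr, with medians of 0.17 in OCsEo and -0.24 in OCsEoS. Mpo (myeloperoxidase), which is also 1 of the 12 neutrophil markers, averaged 24.2 ± 5.18, 30.5 ± 7.44 and 17.7 ± 3.76 CPM. It was called lower in OCsEoS against OCsEo (log2 fold change -0.79, adjusted p = 0.0441), as were 0.307% of all genes tested. This was the only call of the list in that comparison, with a median of -0.36. Mpo was not called (adjusted p = 0.0508 to 0.147) when replicate 1 or 2 of OCsCtr, any replicate of OCsEo or replicate 1, 3 or 4 of OCsEoS was left out. It was called lower in OCsEoS against OCsCtr without replicate 3 of OCsCtr (-0.59, adjusted p = 0.0181) or replicate 2 of OCsEoS (-0.60, adjusted p = 0.0201). Ptgs1 was at 13.0, 14.2 and 15.2 CPM and was not called.

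The genes whose log2 CPM across the 12 libraries was most like that of each subunit differed between the subunits. These correlations describe libraries that share their group differences, and each was the highest out of all genes tested. Cybb was closest to Tap1 (Pearson's r = 0.896), Rnf213 and Ms4a4c, and Cyba to the ribosomal pseudogene Rps10-ps2 (0.988) and to Rpl35. Ncf1 was closest to Ikbke (0.939), Ncf4 to Ech1 (0.952), Rac2 to Dap (0.992) and Ckb (0.989), and Nox1 to Pax5 (0.918). No subunit was among the 3 genes closest to another subunit. Cyba and Ncf1, both higher in the stimulated groups, had an r of 0.588 over all 12 libraries and of -0.558 after the group means were taken out.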

How the data were processed

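Total RNA of 12 osteoclast cultures was sequenced as paired-end bulk RNA-seq. libraries. The authors filtered the reads, aligned them to GRCm38/mm10 with Hisat2 2.0.5 and obtained counts per gene with featureCounts. The deposited counts are whole numbers that were not normalized, and the gene lengths stand in the same table. Annotation release and strand setting are not given in the sources used here. Of the gene identifiers, 99.12% were in GENCODE vM21, from which exons and overlapping genes were taken. The labels and the study's methods give different units for the M-CSF and RANKL concentrations, which are therefore left out.

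Analysis was performed in R 4.3.3 with edgeR 4.0.16. Genes passed filterByExpr with a minimum count of 10 (13681 genes, at least 99.961% of the counts), TMM factors ranged from 0.968 to 1.03, and 1 quasi-likelihood model of 3 groups with 12 libraries gave log2 fold changes, SE, 95% confidence intervals and p-values, adjusted by Benjamini-Hochberg over all genes tested. The model was also run on simulated data, whose outcome is not reported here and is not used as support. The alternatives were DESeq2 1.42.0, other scalings and filters, 2-group fits, a replicate block, and the omission of each library. CPM values use the TMM-scaled totals. The 4 libraries of a group differed by more than sampling noise in each of 18 pairs (chi-square per degree of freedom 10.2 to 36.5).

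Named genes are the 6 subunits, the called genes of each pathway list and, where a list had no call against OCsCtr, its 2 most abundant members, the genes that overlap a subunit, Rac1 and Rac3, and the genes most like each subunit. BC017643, Prkcd, Spi1, the Nox1 partners, the other Nox and Duox genes and the single cell type markers are named outside this rule and were chosen after their values were seen. The members and lists were chosen with earlier results of these data known. The permutation test planned for subunits that fail the filter was not needed, since all passed. A gene of the list of other oxidase genes is counted in that list but not reported here by name.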

Additional observations from a re-analysis of the deposited data

Results flagged for a closer look

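Within a group of 4 libraries, a single library stood apart from the other 3 by Dixon's ratio at the 95% level in 3 cases. These were found among the 6 subunits in each of 3 groups, where chance alone marks about 1 in 20 groups of libraries. Ncf1 was at 68.4 CPM in replicate 1 of OCsEoS (ratio 0.866), Ncf4 at 554.1 CPM in replicate 1 of OCsCtr (ratio 0.935), and Nox1 at 16.12 CPM in replicate 4 of OCsEoS (ratio 0.832). The effects of the stimuli differed for Nox1, with a log2 fold change of 0.76 in OCsEoS against OCsEo (edgeR's quasi-likelihood test, adjusted p = 0.0134). All 4 OCsEoS libraries lay above all 4 OCsEo libraries. Without replicate 2 of OCsEo the same test gave an adjusted p of 0.0516, and Nox1 was not called.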

How the results depend on the processing

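Of 1125 values under alternatives, 1063 were graded as unchanged. For a log2 fold change this means the same sign and the same call. For a count of called genes it means a similar number, such as 4 pathway genes in place of 6 in OCsEo. Within this grade the adjusted p could cross 0.05, as it did for Rac2, Nox1 and Ncf1. By the adjusted p alone, 4 and 3 of the 6 subunits passed in OCsEo and OCsEoS against OCsCtr. Among them were Cyba (0.43 and 0.36), Ncf1 (0.39 and 0.33), and, in OCsEo, Rac2 (-0.33) and Nox1 (-0.45). In the pathway lists, with 9, 20, 12, 14 and 4 genes tested, 18 and 20 genes passed in place of 6 and 2. Over all genes tested, 17.4% and 23.0% passed by the adjusted p alone. Leaving out 1 library at a time moved the number of called subunits between 0 and 1 in OCsEo against OCsCtr and in OCsEoS against OCsEo. The log2 fold change then ranged from -0.205 to 0.0484 for Cybb in OCsEo, from -0.0833 to 0.151 for Cybb in OCsEoS, from -0.0648 to 0.0201 for Ncf4 in OCsEoS against OCsEo, from -0.55 to -0.38 for Nox1 in OCsEo and from 0.68 to 0.85 for Nox1 in OCsEoS against OCsEo. The pathway genes called in OCsEoS against OCsEo, Mpo alone, ranged from 0 to 1. Of the pathway genes, Mpo lost its call in 9, Hvcn1 in 6, Rac3 in 3 and Prkca in 1 of these omissions. Signs turned for values not called, which ranged from -0.00325 to 0.118 for Prkcb and from -0.0173 to 0.232 for Ptgs1 in OCsEoS against OCsEo, and from -0.00687 to 0.242 for Ptgs1 in OCsEo against OCsCtr. With the trend of counts with gene length taken out (added once the data had been seen), 1 pathway gene was called in OCsEoS, Cux1 fell under the fold-change cut-off (-0.34), as did Gpx1 in OCsEo (0.46). Without division by length, the Rac2 share was 60.4%, 55.4% and 51.8% in OCsCtr, OCsEo and OCsEoS. The shift of this share follows from the gene lengths used, 3036 bases for Rac2 and 4496 for Rac1. The causes of the other shifts were not tested. With the replicate block, Nox1 in OCsEoS against OCsEo was at 0.77 and Rac2 in OCsEoS against OCsCtr at -0.61, and the block changed no call. Correlations between same-numbered libraries were low (-0.0435 to 0.0944, none of 12 over 0.1), and those between other numbers ran from -0.115 to 0.123. Whether same-numbered libraries share an origin cannot be read from these values.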
